A study of Mus musculus with 10 samples.

Results

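Members of the signalling kinase and phosphatase families were followed through RNA synthesis, processing and degradation in mouse cortical neurons with and without Fmr1. A gene was taken as a member when its symbol began with Map2k, Map3k, Map4k, Mapk, Prk, Camk, Cdk and a digit, Ppp and a digit from 1 to 6, Ptpn, Ptpr, or Dusp and a digit, leaving out Dusp1. Of the 8590 genes in the rate table, 155 met the rule, 74 by kinase names and 81 by phosphatase names. The rule read symbols only, so it also took in regulatory subunits, inhibitors and a few proteins named after a kinase that are not kinases.

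Neurons were cultured from cortices of embryonic day 18 mice and kept for 14 days in vitro. New RNA was tagged with 200 µM 5-EU (5-ethynyluridine), an analogue of uridine that cells incorporate while transcribing and that can be coupled to biotin for pull-down. The groups compared were wild type and Fmr1-KO, labelled as a knockout of the gene for the RNA-binding protein FMRP, and all samples carried the strain label FVB.129P2-Pde6b+ Tyrc-ch/AntJ. Each genotype had 1 library labelled for 20 min and 1 labelled for 60 min, and these were its only 2 rate estimates. The labels do not say whether they came from separate cultures or animals, so p-values measure only the spread between these libraries, which may be technical. That spread also holds the difference between 20 and 60 min of labelling, which only fits with labelling time as a block take out. Rates are printed in the units of the deposited table, whose time unit is not given in the sources used here.

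Protein kinases add phosphate groups to proteins, and phosphatases remove them. In the MAP kinase cascades a MAP3 kinase activates a MAP2 kinase, which activates a MAP kinase, and dual-specificity phosphatases (DUSPs) switch the MAP kinases off again. Calcium/calmodulin-dependent kinases (CaMKs), protein phosphatase 1 (PP1) and calcineurin act at synapses, where they carry calcium signals into changes of synaptic strength. The level of an mRNA at steady state is its synthesis rate over its degradation rate, and mRNAs of many signal-induced regulators, several DUSPs among them, are known to be short-lived.

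Read depth is unknown for these rates, since the table gives no counts. Fmr1 itself was synthesised at 0.810 (20 min) and 0.692 (60 min) in wild type and at 2.06 and 1.56 in Fmr1-KO. It was degraded at 0.0774 and 0.0672 in wild type and at 2.58 and 2.66 in Fmr1-KO, so that the ratio of synthesis to degradation was 10.5 and 10.3 against 0.800 and 0.586. Both rates of Fmr1 were higher in the libraries labelled Fmr1-KO, synthesis included, and the ratio was lower in both. Of the marker genes, 4 of 12 for neurons, 4 of 9 for astrocytes, 5 of 8 for the oligodendrocyte lineage, 1 of 6 for endothelium and fibroblasts and 0 of 6 for microglia were in the rate table. A synthesis rate was listed in wild type, at each time, for 3 neuron, 3 astrocyte and 5 oligodendrocyte markers. In Fmr1-KO the counts were 1 and 1 for neurons (20 and 60 min), 3 and 2 for astrocytes and 1 and 3 for the oligodendrocyte lineage. Rates do not give the amount of a marker, and the part of other cell types in the results was not tested.

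Not every member had a rate in every library. A degradation rate above 0 was listed for 141 (20 min) and 143 (60 min) members in wild type, and for 116 at each time in Fmr1-KO. All 4 rates were there for 103 members, which were 46 of 74 in the kinase families (62.2%) and 57 of 81 in the phosphatase families (70.4%), against 66.5% of all genes. These 103 entered the main comparison, and members with 1 rate missing are taken up after it.

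The members without a knockout rate included central kinases. Mapk8 and Mapk9, which encode the stress kinases JNK1 and JNK2, had both wild-type rates and neither knockout rate. Mapk8 was degraded at 0.105 and 0.107 in wild type and Mapk9 at 0.0774 and 0.0415. Camk4, a nuclear kinase that phosphorylates CREB, likewise had rates only in wild type, of 0.0559 and 0.0349. Among members with both wild-type rates, 14 of 70 in the kinase families (20.0%) and 9 of 71 in the phosphatase families (12.7%) had no knockout rate, against 19.5% of all genes.

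The opposite gap was found for 4 of 155 members, all in the phosphatase families: Dusp6, Ppp1r11, Ppp1r15a and Ppp1r26 had both knockout rates and no wild-type rate. The same gap was seen for 168 of all 8590 genes. Dusp6, a cytoplasmic phosphatase of ERK, had synthesis rates of 31.3 and 20.5 and degradation rates of 1.92 and 1.18 in Fmr1-KO. Ppp1r15a (GADD34), which directs PP1 to the translation factor eIF2α under stress, had degradation rates of 0.686 and 0.488. No rate in any library was listed for 6 members, among them Prkg1 and Dusp23. Cdk5, a neuronal kinase of the cyclin-dependent family, had a rate in the 20 min knockout library alone, with a synthesis rate of 1.67 and a degradation rate of 0.0233.

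In wild type, turnover differed most between the DUSPs and the families at the slow end. Taking the geometric mean of the 2 times, the 10 DUSPs with both rates had a median degradation rate of 0.253, and 5 of the 10 lay in the fastest 10% of all genes. The receptor-type tyrosine phosphatases (PTPRs), which span the membrane and bind adhesion partners, had a median of 0.0468 over 12 members, and the CaMKs one of 0.0447 over 7, with 0 members of either family in the fastest 10%. The medians were 0.0922 over 70 members in the kinase families, 0.0978 over 71 in the phosphatase families and 0.110 over all genes. These differences between families were not tested, since members of a family are not replicates.

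**Figure D1:**
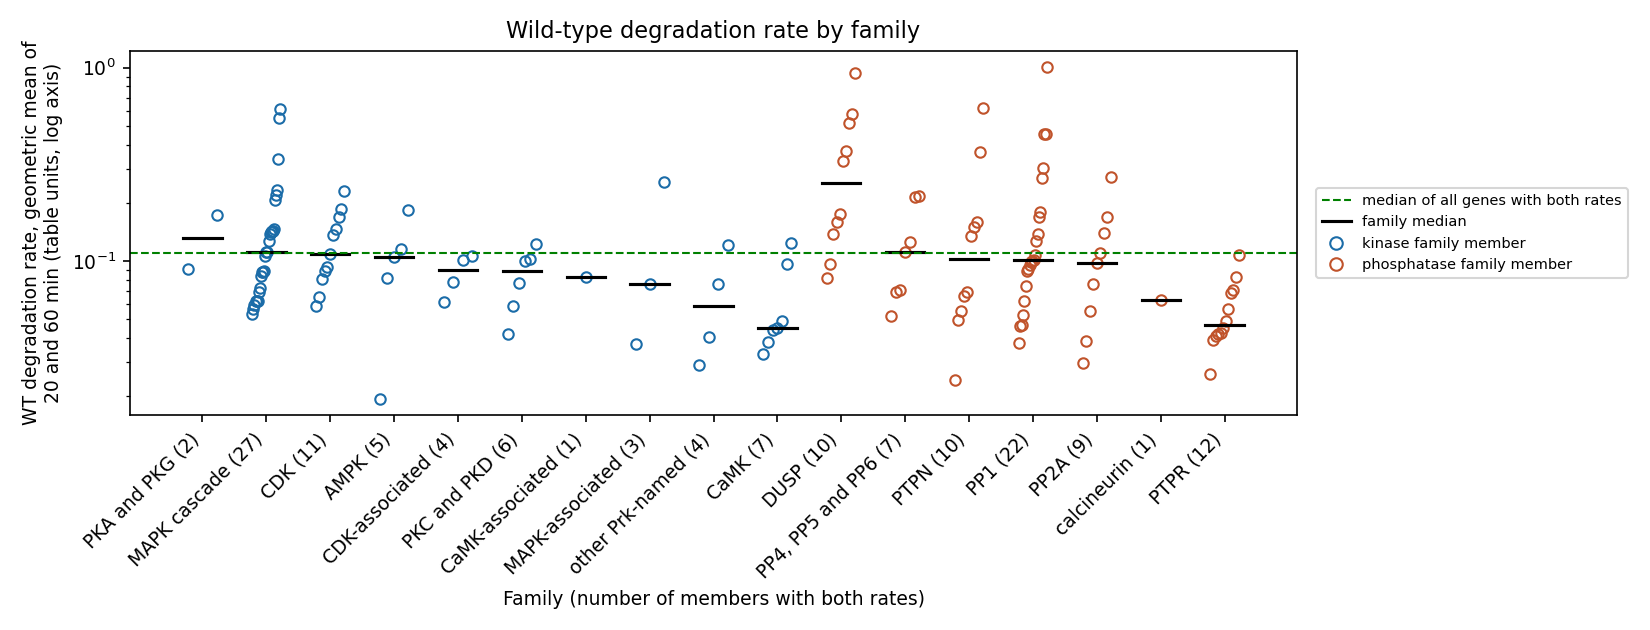
Wild-type degradation rate by family, as the geometric mean of the 20 and 60 min libraries in table units on a log axis. Each point is 1 member, black bars are family medians and the dashed line is the median of all genes; the DUSP median (0.253) lies above it, and the CaMK (0.0447) and PTPR (0.0468) medians lie below.

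The fastest member was Ppp1r3d, a glycogen-targeting subunit of PP1, with rates of 1.06 at 20 min and 0.952 at 60 min. Dusp5, a nuclear phosphatase of ERK, followed with 0.721 and 1.23. Ptpn2, a tyrosine phosphatase of JAK and STAT proteins, had 0.664 and 0.574. Map3k1, a MAP3 kinase upstream of JNK, had 0.388 and 0.960, and Dusp4, another nuclear MAP kinase phosphatase, 0.575 and 0.582. The times differed widely in Map3k1, so the order among these members is not fixed by the data. The slowest were Prkag1, a regulatory subunit of the energy sensor AMPK, with 0.0105 and 0.0359, then Ptpn5 (STEP, a tyrosine phosphatase of striatal and cortical neurons) with 0.0600 and 0.00967, and Ptpru with 0.0531 and 0.0127.

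The pentamer ATTTA is the core of AU-rich elements, which recruit decay factors to short-lived mRNAs. It was searched on the sense strand of the 3′ UTR, with overlapping matches counted, and 110 of 152 members with a 3′ UTR in GENCODE M21 held at least 1 (72.4%), against 69.3% of all genes. The medians were 1.20 per kb in members and 1.30 per kb in all genes. The nonamer TTATTTATT, which contains the pentamer, was found in 14 members (9.21%) and in 8.04% of all genes. The 30-base window richest in ATTTA is shown for 4 of the 5 fastest members, for Dusp6 and for the 3 members with 4 overlapping copies in 1 window, on the sense strand with each pentamer in capitals (GRCm38).
Ppp1r3d, chr2:178413022-178413051, minus strand: ataagtagctgttATTTAttattgtgaagt
Dusp5, chr19:53541977-53542006, plus strand: ggactttggtgtgATTTAaaaaaaaaaata
Dusp4, chr8:34819045-34819074, plus strand: tttgcaggtagaaATTTAcctcattattat
Dusp6, chr10:99267419-99267448, plus strand: gttttgagctggaATTTAttataagaatgt
Map3k1, chr13:111748588-111748617, minus strand: aacagaagcataaATTTAtttttggagcac
Ppp1r15a, chr7:45522951-45522980, minus strand: tcctattATTTATTTATTTATTTAtttgaa
Dusp11, chr6:85943545-85943574, minus strand: ttcttttATTTATTTATTTATTTAtatatg
Ppp1r16b, chr2:158764848-158764877, plus strand: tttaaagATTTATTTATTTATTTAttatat

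A window with 4 copies occurred in 3 of 151 members (1.99%) and in 36 of 8155 genes with a 3′ UTR of at least 30 bases (0.441%), and a window with at least 1 copy in 69.7% of these genes. Of other fast members, Dusp7, Dusp14, Ptpn12 and Map3k11 held 0 copies of ATTTA in the 3′ UTR. Ptpn2 held 4, Ppp1r15b 3, Dusp22 2, and Map3k3 and Ppp1r10 1 each. The members sharing the run of 4 copies differed in turnover in Fmr1-KO, where all 3 had rates. Ppp1r15a had degradation rates of 0.686 and 0.488 there, Dusp11, a phosphatase of RNA 5′ ends, 0.0725 and 0.0554, and Ppp1r16b, a PP1 subunit of endothelium and brain, 0.164 and 0.181. Across the 138 members with both values, the Spearman rho of ATTTA per kb with the wild-type degradation rate was 0.175, beside 0.181 over 7571 genes, and it was -0.0150 with the knockout rate (105 members), beside -0.0307 over all genes. In single wild-type libraries the members' rho was 0.0881 at 20 min and 0.198 at 60 min. The rho of 3′ UTR GC content with the wild-type rate was -0.309 in members and -0.291 in all genes. In the phosphatase families, the longer the coding sequence the lower the wild-type rate, with a rho of -0.446 over 71 members, against 0.0476 over 70 in the kinase families and -0.179 over 7678 genes. With the knockout rate it was -0.264 over 61 phosphatase-family members. This feature was singled out from several that were compared. Coding sequences ran from 1968 to 5736 bases in the slow PTPRs and from 594 to 1266 in the fast DUSPs. A relation within families was not tested. These values describe genes that share libraries and base composition, so they carry no p-value.

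In Fmr1-KO the degradation rate was higher in most genes, and the members were read against that shift. Over the 5716 genes fitted, the median log2 change (Fmr1-KO minus wild type) was 0.65, with 20.5% called higher and 2.57% called lower by limma at an adjusted p under 0.05. The 46 fitted members of the kinase families had a median of 0.93, and 10 rose (21.7%) while 1 fell. The 57 of the phosphatase families had a median of 0.25, and 7 rose (12.3%) while 1 fell. Both knockout rates exceeded both wild-type rates in 27 kinase-family members (58.7%) and 23 phosphatase-family members (40.4%), against 52.6% of all genes, and lay below both in 8 and 11 against 16.5%. The difference between the kinase and phosphatase families was not tested.

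The wild-type rates of a gene were not independent measurements. Synthesis over degradation rate came out equal at 20 and 60 min, within 0.001 on the log2 scale, in 137 of 141 members in wild type (97.2%) and in 1 of 107 in Fmr1-KO (0.935%). Over all genes the shares were 93.4% and 0.271%, so this is a property of the whole table. Whether both genotypes were estimated with the same settings is not given in the sources used here, and the part of this difference in the changes of degradation rate was not tested. The spread between the wild-type rates therefore repeats that of synthesis and does not show the full error of degradation.

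The calls depended on the scaling of the libraries and on single libraries. With labelling time as a block, 21 kinase-family members were higher and 2 lower (38.2% and 9.76% of all genes), and 15 and 6 in the phosphatase families. After each library was centred on its median, which took 0.86 off the log2 change of every gene, 0 kinase-family members and 1 phosphatase-family member passed (0.56% of all genes higher and 1.05% lower). With block and centring together, 4 kinase-family members were higher and 10 lower, and 5 and 19 in the phosphatase families, against 13.9% and 22.4% of all genes. Leaving out either 60 min library, wild type or knockout, left 0 calls in both classes, against 0.0% of all genes higher and 0.0175% lower without the wild-type library and 0.997% and 1.26% without the knockout library. Without the 20 min wild-type library 7 kinase-family and 9 phosphatase-family members passed (18.4% of all genes higher and 1.08% lower), and 5 and 6 of them were among the 11 and 8 calls. Without the 20 min knockout library the 2 that passed, Map3k7 and Ptpn23, were not among those calls (1.08% and 1.54% of all genes).

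**Figure D2:**
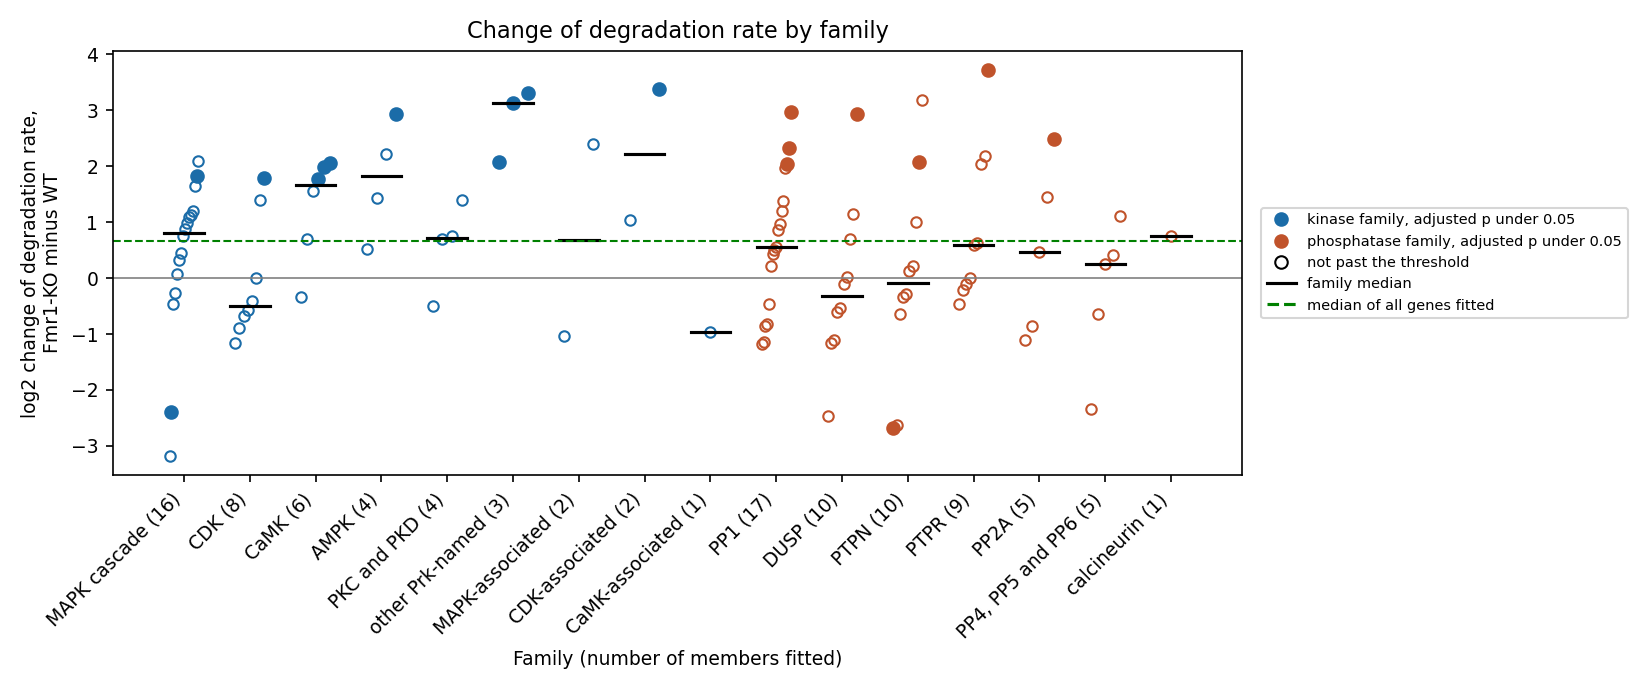
Log2 change of the degradation rate (Fmr1-KO minus wild type) by family, with 1 point for each of the 103 fitted members. Filled points passed limma's adjusted p of 0.05, black bars are family medians and the dashed line is the median of all genes (0.65); CaMK members lie mostly above it, while the CDK (-0.50) and DUSP (-0.33) medians lie below 0.

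Within the MAP kinase cascades, 16 members were fitted, with a median log2 change of 0.81. Map2k4 (MKK4, which activates JNK and p38 kinases; chr11:65688243-65788297, minus strand, GRCm38) was degraded at 0.0883 and 0.0799 in wild type and at 0.0206 and 0.0124 in Fmr1-KO. Both knockout libraries lay below both wild-type libraries. The rate fell by 2.40 ± 0.40 (SE) on the log2 scale, 5.27-fold, with limma's adjusted p at 0.0281. It was synthesised at 2.69 and 2.44 in wild type and at 2.35 and 2.11 in Fmr1-KO. The fall did not pass with a variance trend (adjusted p = 0.0662 by limma; 0.0136 to 0.461 over its alternatives), and the filter on the lowest 25% of mean rates removed the gene.

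Map2k1 (MEK1, a MAP2 kinase) went the other way. It had degradation rates of 0.0663 and 0.0581 in wild type and 0.230 and 0.211 in Fmr1-KO, without overlap, a rise of 1.83 ± 0.32 (SE) in log2 (limma adjusted p = 0.0288). Map3k7 (TAK1, which acts in cytokine signalling) had 0.0673 and 0.117 in wild type against 0.0267 and 0.00357, with a log2 change of -3.18 and an adjusted p of 0.0952 by limma. Its knockout rates lay far apart from each other, and the change did not pass the threshold. Mapk14 (p38α) had 0.122 and 0.168 in wild type and 0.126 and 0.182 in Fmr1-KO, with overlapping groups and a log2 change of 0.08.

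Among the CaMKs, 3 of 6 fitted members rose (20.5% of all genes), and the median log2 change was 1.66, beside 0.65 over all genes. After centring 0 of the 6 passed, and with block and centring 0 were higher and 1 lower. Camk2g, the gamma isoform of CaMKII, had degradation rates of 0.0580 and 0.0346 in wild type and 0.192 and 0.179 in Fmr1-KO, a rise of 2.05 ± 0.40 (SE; limma adjusted p = 0.0351). Camkk1, a kinase that activates other CaMKs, went from 0.0451 and 0.0533 to 0.219 and 0.170, a rise of 1.98 ± 0.34 (adjusted p = 0.0286), and Camk1 from 0.0462 and 0.0317 to 0.134 and 0.127, a rise of 1.77 ± 0.36 (adjusted p = 0.0377). In each of the 3 the genotypes did not overlap. Camkk2 had 0.0572 and 0.0190 against 0.119 and 0.0792, and its log2 change of 1.55 did not pass (adjusted p = 0.145, and 0.0342 with the time block). The authors' deposited table called Camkk2 higher, at 1.57 (limma adjusted p = 0.0242). In the calls that rose, exons of Camk1, Cdk20 and Prkag1 overlap a gene on the other strand, and whether reads were counted by strand is not given in the sources used here.

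The cyclin-dependent kinases had a median of -0.50 over 8 fitted members, of which 3 lay above 0. Cdk20 rose, from 0.0959 and 0.124 to 0.362 and 0.396 (1.80 ± 0.34 in log2, SE; limma adjusted p = 0.0324). Cdk9, the catalytic subunit of the elongation factor P-TEFb, had 0.217 and 0.158 in wild type and 0.0771 and 0.0886 in Fmr1-KO. The Cdk9 groups did not overlap, and the log2 change of -1.17 had an adjusted p of 0.0784, or 0.0455 with the block. Cdk4, a kinase of the cell cycle, had 0.0486 and 0.0702 against 0.174 and 0.135, a log2 change of 1.39 that did not pass (adjusted p = 0.0639, and 0.0387 with the block).

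Of 4 fitted AMPK subunits 1 passed, Prkag1 (20.5% of all genes higher), and 3 were called higher with the block (38.2%). After centring, with or without the block, 0 of the 4 passed. Its degradation rates of 0.169 and 0.130 in Fmr1-KO both exceeded the 0.0105 and 0.0359 seen in wild type, a rise of 2.93 ± 0.69 (SE) in log2 with a limma adjusted p of 0.0486. In the authors' deposited table its log2 change was 1.17 and did not pass (adjusted p = 0.115). Prkab1, another regulatory subunit, had 0.0638 and 0.171 in wild type against 0.435 and 0.550, without overlap, and its log2 change of 2.23 did not pass here (adjusted p = 0.0598, and 0.0190 with the block). The authors' deposited table called Prkab1 higher, at 2.22 (adjusted p = 0.0234). The catalytic subunit gene Prkaa1 had 0.0969 and 0.349 against 0.367 and 0.669, with a log2 change of 1.43 that did not pass (adjusted p = 0.222, and 0.0399 with the block). Prkca, a calcium-dependent protein kinase C, had 0.0944 and 0.105 against 0.0675 and 0.0736. The Prkca groups did not overlap, and the log2 change of -0.50 did not pass (adjusted p = 0.293).

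The largest rises under kinase names were those of Cdk5rap1, Prkcsh and Prkra, which do not encode kinases. Prkrip1, which does not encode one either, rose less. Cdk5rap1, which encodes an enzyme that modifies transfer RNA, had degradation rates of 0.134 and 0.0765 in wild type and 1.15 and 0.968 in Fmr1-KO, 10.4-fold higher (3.38 ± 0.42 in log2, SE; limma adjusted p = 0.0235). Prkcsh, the beta subunit of glucosidase II in the endoplasmic reticulum, had 0.0548 and 0.0295 against 0.439 and 0.358, 9.86-fold higher. Prkra, an activator of the antiviral kinase PKR, had 0.119 and 0.0488 against 0.647 and 0.680, 8.72-fold higher, and Prkrip1, a splicing-associated protein, 0.108 and 0.136 against 0.543 and 0.482, 4.21-fold higher. In all 4 the genotypes did not overlap, with limma adjusted p-values of 0.0235 to 0.0286. They make up 4 of the 10 rises counted for the kinase families.

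**Figure D3:**
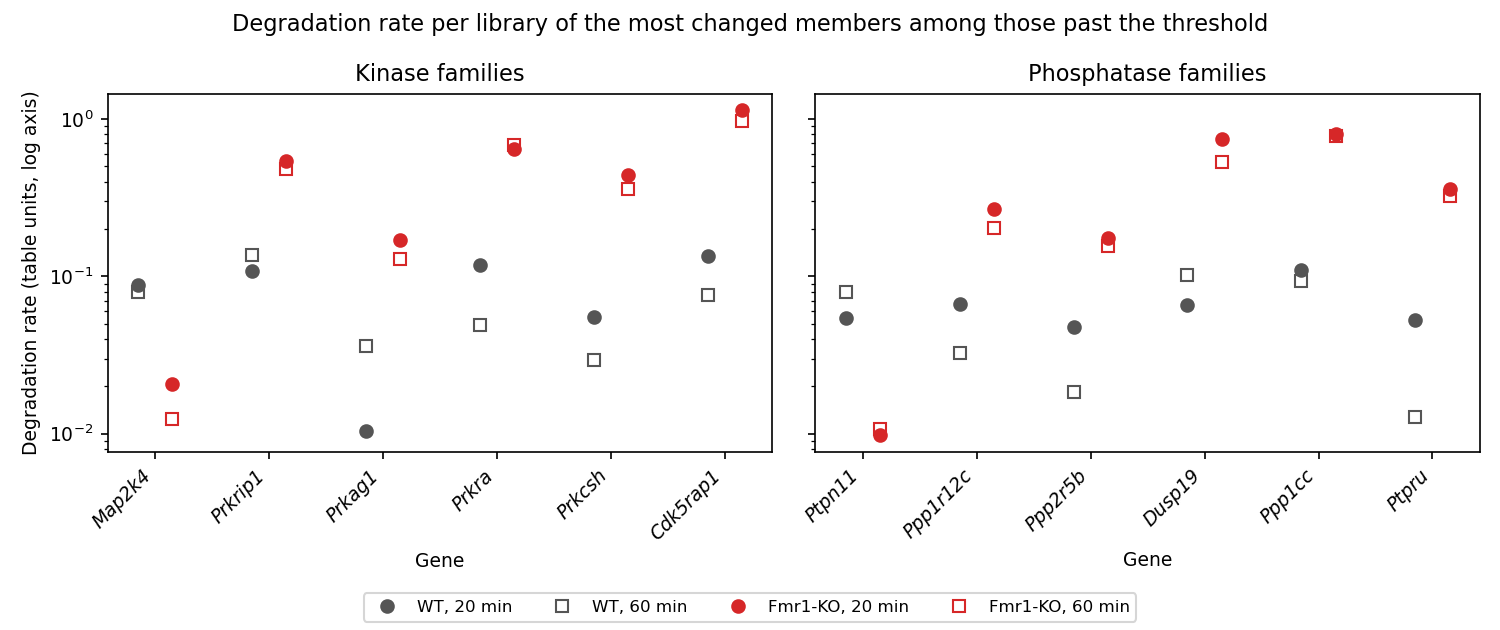
Degradation rate in each of the 4 libraries, in table units on a log axis, for the members with the largest changes among those past the threshold. Grey is wild type, red is Fmr1-KO, filled circles are 20 min and open squares 60 min; the genotypes do not overlap in any of the 12 genes, and Map2k4 and Ptpn11 are the 2 that lie lower in Fmr1-KO.

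In the phosphatase families, Ppp1cc rose and Ptpn11 fell in degradation rate, and neither passed the test for synthesis rate. Ppp1cc, the gamma catalytic subunit of PP1 (chr5:122158278-122175273, plus strand, GRCm38), had degradation rates of 0.110 and 0.0938 in wild type and 0.806 and 0.782 in Fmr1-KO. The groups were far apart, and the rise of 2.97 ± 0.32 (SE) in log2, 7.82-fold, had a limma adjusted p of 0.0235. It was synthesised at 0.645 and 0.551 in wild type and at 0.671 and 0.587 in Fmr1-KO, and these values overlapped.

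Ptpn11 encodes SHP2, a tyrosine phosphatase that passes growth factor signals on to Ras and ERK (chr5:121130533-121191397, minus strand, GRCm38). It was degraded at 0.0544 and 0.0797 in wild type and at 0.00976 and 0.0107 in Fmr1-KO, where both values lay lower. The rate fell by 2.69 ± 0.37 (SE) on the log2 scale, 6.44-fold, with a limma adjusted p of 0.0235. This was the 1 member in either class that still passed after centring, with an adjusted p of 0.0497, and it did not pass with a variance trend (adjusted p = 0.117 by limma; 0.0133 to 0.328 over its alternatives) or after quantile normalization (Cdk5rap1, Map2k4, Prkcsh, Dusp5, Dusp11, Ppp1cc and Ppp2r5b did, with 6.3% of all genes higher and 4.13% lower). The filter on the lowest 25% of mean rates removed Ptpn11. Its synthesis rates were 1.37 and 2.01 against 1.84 and 1.88, which overlapped.

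The other rises came from a receptor phosphatase, a DUSP, a PP2A subunit, PP1 subunits and a cytoskeletal tyrosine phosphatase. Ptpru, a receptor-type phosphatase, had degradation rates of 0.0531 and 0.0127 in wild type and 0.357 and 0.326 in Fmr1-KO, the largest rise of any fitted member at 3.72 ± 0.77 (SE) in log2 (limma adjusted p = 0.0380). Dusp19 had 0.0659 and 0.101 against 0.743 and 0.530, and Ppp2r5b, a B56 regulatory subunit of PP2A, 0.0475 and 0.0183 against 0.175 and 0.155. Ppp1r12c, a subunit that directs PP1 to myosin, had 0.0672 and 0.0327 against 0.267 and 0.204. The genotypes did not overlap in any of them, and limma's adjusted p ranged from 0.0235 to 0.0457. Ptpn3 and Ppp1r2, an inhibitor of PP1, rose by 2.07 and 2.04 in log2. Exons of Dusp19 overlap those of Nup35 on the same strand, and exons of Ppp2r5b and Ptpn3 overlap a gene on the other strand, so reads from the shared stretches cannot be assigned with certainty.

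The DUSPs, the family with the highest median rate in wild type, had changes in both directions. Their median log2 change was -0.33 over 10 fitted members, and 1 of the 10, Dusp19, was called (20.5% of all genes higher and 2.57% lower). Dusp5 had 0.721 and 1.23 in wild type against 0.285 and 0.102 in Fmr1-KO, lower without overlap, with a log2 change of -2.47 (adjusted p = 0.0596, and 0.0392 with the block). Dusp4 had 0.575 and 0.582 against 1.12 and 1.45, higher without overlap, with a log2 change of 1.14 (adjusted p = 0.0734, and 0.0376 with the block). Dusp7 had 0.477 and 0.564 against 0.424 and 0.542, Dusp14 0.287 and 0.481 against 0.370 and 0.380, and Dusp3, which acts on ERK and JNK, 0.0968 and 0.0957 against 0.158 and 0.154. Overlap was seen for Dusp7 and Dusp14 and not for Dusp3, whose adjusted p was 0.164.

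Ptpn5, which dephosphorylates glutamate receptors and ERK in neurons, had degradation rates of 0.0600 and 0.00967 in wild type and 0.239 and 0.203 in Fmr1-KO. Both knockout values were higher, but the wild-type values lay far apart, and the log2 change of 3.19 ± 0.95 (SE) had a limma adjusted p of 0.0755, or 0.0259 with the block. The authors' deposited table called Ptpn5 higher, at 3.19 (limma adjusted p = 0.00724). Ppp1r1b (DARPP-32, an inhibitor of PP1 in dopamine signalling) had 0.147 and 0.109 against 0.242 and 0.143, with overlapping groups. Ptpn1 (PTP1B, a phosphatase of the insulin receptor) had 0.119 and 0.186 against 0.0891 and 0.166, Ptprd 0.0551 and 0.0326 against 0.0558 and 0.0277, and Ppp5c 0.0866 and 0.0308 against 0.0990 and 0.0475. These 3 also overlapped, with log2 changes of -0.29, -0.11 and 0.41.

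Members with only 1 knockout rate lay outside the main comparison, and all of them were lower in Fmr1-KO at the shared time. Of the 15 members with both wild-type rates and 1 knockout rate, 15 had a lower degradation rate in Fmr1-KO at the shared labelling time, 10 in the kinase and 5 in the phosphatase families. The same held for 621 of 652 genes of that kind in the whole table (95.2%), so it is not particular to the members. The count of rises over falls among the 103 fitted members therefore leaves out a group in which the rates were lower.

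Several catalytic subunits were in this group. Ppp1cb, the beta catalytic subunit of PP1, had 0.126 in wild type and 0.00712 in Fmr1-KO at 60 min, 17.7-fold lower, beside synthesis rates of 4.49 and 4.18. Ppp2cb, a catalytic subunit of PP2A, had 0.193 and 0.0249 at 20 min, 7.77-fold lower, and Ppp6c, that of PP6, 0.287 and 0.0363 at 60 min, 7.89-fold lower. On the kinase side, Prkar2b, a regulatory subunit of protein kinase A, had 0.0975 and 0.0118 at 60 min, and Map3k12 (DLK, a kinase of axon injury signalling) 0.0967 and 0.0145 at 20 min. Prkaa2, a catalytic subunit of AMPK, had 0.214 and 0.0956 at 60 min. With 1 knockout library each, these differences have no replicate in Fmr1-KO.

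A limma fit over genes with 3 or 4 rates, added after the data were seen, took in these 15 members with the lone knockout rate assumed to vary like the others. All 15 were lower at the shared time, so their direction was known before the fit. With 1 knockout library each, only effect sizes are given. Ppp1cb, Ppp2cb and Prkar2b had log2 changes of -3.79, -2.77 and -2.96. Ppp2r5a, a B56 subunit of PP2A, had -6.23, and Ppp4r1, a regulatory subunit of PP4, -3.14. Ppp6c, Map3k12 and Prkaa2 were at -2.55, -2.02 and -0.28. Each gene's own spread comes from its wild-type rates that share 1 ratio, so the fit carries no replicate check of the knockout. In that fit the median log2 change was 0.61 over 56 kinase-family and 0.17 over 62 phosphatase-family members, against 0.48 over all 6397 genes. The members it added were all lower in Fmr1-KO, so its medians lie below those of the main comparison by that choice.

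Synthesis rates showed no call in any member. Among 46 kinase-family and 58 phosphatase-family members fitted, 0 passed limma's adjusted p (0.0% of all 5794 genes higher and 0.0% lower), and 0 had an unadjusted p under 0.05, where 0.0863% of all genes were higher and 0.224% lower. The block fit gave 0 as well. The median log2 change was 0.02 in the kinase families and -0.03 in the phosphatase families, both against -0.03 over all genes. The synthesis changes span a narrower range than those of degradation, from -0.75 to 1.49 over all fitted members. Prkag1 had synthesis rates of 0.0935 and 0.320 in wild type against 0.674 and 0.351 in Fmr1-KO, a log2 change of 1.49. Dusp19 had 0.212 and 0.317 against 0.965 and 0.381, a log2 change of 1.23. In both, the knockout values were higher, and the difference was larger at 20 min. Both knockout rates exceeded both wild-type rates in 4 kinase-family and 6 phosphatase-family members (8.92% of all genes) and lay below both in 4 and 2 (9.2%).

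At the other end, Ptpn23, an endosomal protein of the tyrosine phosphatase family, had synthesis rates of 1.30 and 0.489 in wild type and 0.792 and 0.284 in Fmr1-KO, with overlapping groups and a log2 change of -0.75. Ptpru and Dusp15 followed at -0.68 and -0.62, and Camk1 was lowest in the kinase families at -0.61. Leaving out 1 library at a time gave -1.72 to 0.35 for Ptpru and -1.49 to 0.24 for Dusp15, so their sign depends on single libraries. Among members with the same sign at both times, the next highest after Prkag1 in the kinase families were Cdk5rap2 and Prkrip1, at 0.66 and 0.62. In the phosphatase families Ppp2r3c and Ptprm followed Dusp19 at 0.79 and 0.46. Cdk20 and Cdk9 were the next lowest kinase-family members with that limit, at -0.41 and -0.37.

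**Figure D4:**
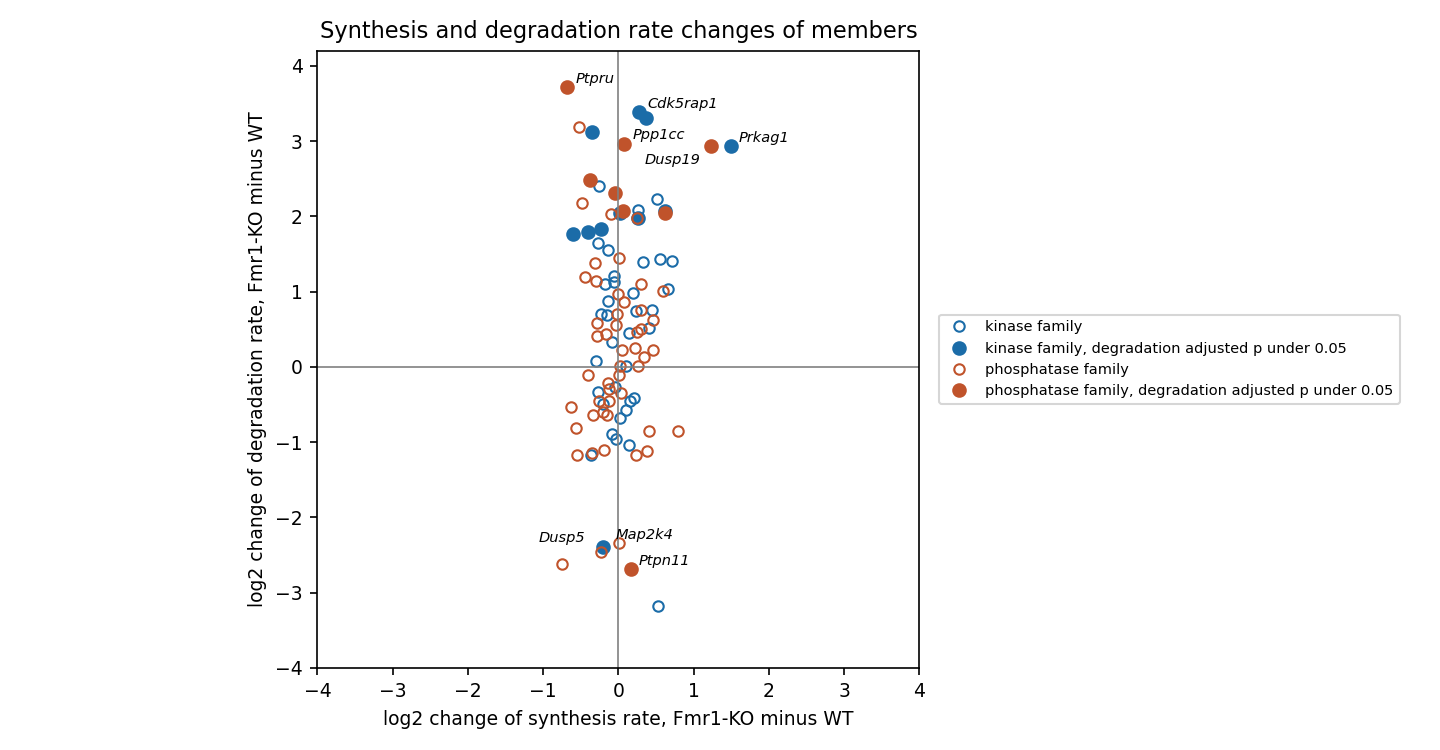
Log2 change of the degradation rate against that of the synthesis rate (Fmr1-KO minus wild type) on equal axes, 1 point per fitted member, with filled points past limma's adjusted p of 0.05 for degradation. The points form an upright band: synthesis changes run from -0.75 to 1.49, and degradation changes from -3.18 to 3.72.

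Processing rates, at which pre-mRNA is turned into mature RNA, were also without a call at limma's adjusted p under 0.05 (0.0% of 5082 genes). The median log2 change was -0.38 over 43 members of the kinase families, -0.34 over 55 of the phosphatase families and -0.36 over all genes. At an unadjusted p under 0.05 there were 4 kinase-family members and 1 phosphatase-family member, against 4.23% of all genes higher and 11.2% lower. With labelling time as a block, limma called 2 members higher and 6 lower in each class, with 6.26% of all genes higher and 19.3% lower. With block and centring, 3 kinase-family members were called higher and 1 lower, and 2 and 1 in the phosphatase families, against 7.14% and 6.4% of all genes. Both knockout rates exceeded both wild-type rates in 3 kinase-family and 7 phosphatase-family members (11.5% of all genes) and lay below both in 12 and 12 (35.1%).

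Mapk7 (ERK5) had the highest change among kinases, with processing rates of 3.35 and 6.07 in wild type and 17.9 and 26.0 in Fmr1-KO. Its genotypes did not overlap, and the log2 change of 2.26 had an adjusted p of 0.156 by limma, 0.00953 with the block. Cdk20 lay at the other end with 5.37 and 6.94 against 1.06 and 1.69, also without overlap, a log2 change of -2.19 and adjusted p-values of 0.148 and, with the block, 0.00956. Camk2n1, an inhibitor of CaMKII, had 18.1 and 15.9 against 8.14 and 4.99, a log2 change of -1.41 (adjusted p = 0.244 by limma, 0.0221 with the block). Mapk11 (p38β) had the lowest value, -3.66, which rested on 1 rate: 8.10 and 1.42 in wild type stood against 4.22 and 0.0170 in Fmr1-KO.

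Among phosphatases, Ppp4c, the catalytic subunit of PP4, had processing rates of 4.33 and 8.11 in wild type and 9.28 and 19.5 in Fmr1-KO, and Ppp1r8, a nuclear inhibitor of PP1, 0.354 and 0.642 against 0.939 and 1.07. Neither overlapped, with log2 changes of 1.18 and 1.07 and limma adjusted p-values of 0.404 and 0.359, or 0.0264 and 0.0468 with the block. Ptpn13 had 15.7 and 9.98 against 4.97 and 1.61, lower without overlap, with a log2 change of -2.15 (adjusted p = 0.232 by limma, 0.0149 with the block). Ppp1r37 had 15.1 and 5.05 against 5.26 and 2.04, which overlapped, with a log2 change of -1.42 that passed only with the block (0.0188). Ppp1r1a, Ppp2r5d, Prkag1 and Map3k13 had log2 changes of -1.42, 0.60, 2.11 and 1.12, and of these Map3k13 passed with the block (0.0440). The other members called for processing with the block, all lower in Fmr1-KO, were Camk1, Map3k9, Mapk14, Mapkbp1, Dusp12, Ppp1r12c, Ppp5c and Ptpn23. Mapk14 had a log2 change of -0.90 and Ppp5c one of -0.93, with adjusted p-values of 0.0495 and 0.0463 by limma with the block. With block and centring, Cdk20, Map3k13, Mapk7, Prkab1, Ppp1r8, Ppp4c and Ptpn13 passed. The other members called with the block did not.

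The ratio of synthesis to degradation rate, which would equal the mRNA level only at steady state, was lower in Fmr1-KO in 32 of 46 fitted kinase-family members and 32 of 57 phosphatase-family members (69.6% and 56.1%), against 67.6% of all genes. The median log2 change of the ratio was -0.82 in the kinase families, -0.17 in the phosphatase families and -0.64 over 5704 genes. It carries no test, since the ratio was fixed between times in wild type. In Fmr1-KO the ratio was equal between times in 1 of 107 members, so there it does not give a single level per gene. The rates were not centred for this ratio, and measured RNA levels were not analysed here.

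Other genes of the same pathways were counted from lists of non-members. In the list of Ras, Raf and ERK effectors 2 of 17 fitted genes rose and 0 fell (11.8%, against 20.5% of all genes higher and 2.57% lower), with a median log2 change of degradation of 0.61. The 2 were Rps6ka2 and Rps6ka4, kinases that ERK or p38 activate. Rps6ka2 had degradation rates of 0.0480 and 0.0701 in wild type against 0.271 and 0.255, and Rps6ka4 0.0562 and 0.0536 against 0.442 and 0.434. For cAMP and calcium signalling 2 of 17 rose (11.8% against 20.5%) and 0 fell, with a median of 0.85: Adcy3, an adenylyl cyclase, at 1.96 and Pde4a, a cAMP phosphodiesterase, at 2.25. In the PI3K, AKT and mTOR list 0 of 10 passed (median 0.49; 4 at an unadjusted p under 0.05 by limma, where 35.9% of all genes were higher and 7.26% lower), and of 15 other phosphatases 1 fell (6.67% against 2.57%), Ppm1g at -2.66, with a median of -0.19.

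The authors' deposited table of degradation rate changes called 14 of 54 kinase-family members higher and 5 lower, and 13 of 60 phosphatase-family members higher and 3 lower, against 29.2% of all 6182 genes higher and 7.09% lower. Of its 8 members called lower, 7 had no rate in 1 of the libraries and were outside the main comparison, all but Map2k4, and over all genes 44.5% of its lower calls were outside. Ppp2cb, Ppp6c and Map3k12 were among these in the authors' deposited table, with log2 changes of -2.93, -2.27 and -2.15 and adjusted p-values of 0.0143, 0.0250 and 0.0430. It shared 10 of the 11 calls made here in the kinase families and 7 of the 8 in the phosphatase families. The calls not shared were Prkag1 and Ptpn11, and for Ptpn11 the authors' deposited table lists no change of degradation rate. It lists none either for Ppp1cb, Ppp2r5a and Prkar2b, which had a single knockout rate. For synthesis and processing, the authors' deposited tables called 0 members.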

How the data were processed

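Rates of synthesis, processing and degradation were taken from the table the authors deposited, which is named for INSPEcT per the labels; the values are linear and of 0 or above, and the time unit, the strand setting and the use of the spike-ins are not given in the sources used here. Labelled fly RNA and unlabelled yeast RNA had been added at 10% each, per the labels. The submitters' processing notes name cutadapt, Bowtie2, TopHat2, HISAT2 and limma and the builds mm10, dm6 and sacCer3, with no role or order. Input libraries and unlabelled pull-downs have no rate columns of their own and were not analysed here, and 0 columns of per-sample values were left unused. The authors' deposited comparison tables hold mean log2 rates and log2 fold changes, p-values with adjusted p-values, and 2 score columns (the moderated statistic and the log odds) that were not used.

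For each rate, genes with a rate above 0 in all 4 labelled libraries were log2-transformed without a pseudocount and compared by limma 3.58.1 in R 4.3.3 (lmFit, eBayes without trend, two-sided, Benjamini-Hochberg over all genes fitted, threshold 0.05). The fit was run on simulated data with independent noise, without a labelling-time difference or a shared wild-type ratio. Its error rates on the real rates were therefore not tested. Members were read from the fit over the whole table. A fit over genes with at least 3 rates above 0, missing rates left out, was added after the data were seen. The members, the lists and the alternatives were chosen with earlier results of these data known. Named for degradation were, per class, the 5 largest rises and 5 largest falls among calls with the same sign at both times; for synthesis and processing, where no member passed, the 3 highest and 3 lowest members with the same sign at both times; and key members fixed by name. Others named, such as the fastest and slowest members, Map3k7, Camk2g, Camkk1, Ptpn3, Cdk4, Prkaa1, Prkab1, Dusp7 and Dusp14, were chosen after their values were seen.

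Labelling time pairs the libraries across genotypes, per the labels; over genes, the 20 to 60 min difference in wild type and in the knockout had a Spearman rho of 0.735 (synthesis), 0.735 (processing) and 0.652 (degradation) between them. The fit with time as a block is printed for genes named for that rate where it changes a call, and otherwise as counts. Sequence, positions and exon overlaps came from GENCODE M21 (GRCm38), matched by symbol (155 of 155 members, 8316 of 8590 genes), with 1 protein-coding transcript per gene, the one of longest coding sequence; mm10 is the same assembly.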

Additional observations from a re-analysis of the deposited data

Results flagged for a closer look

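The change between genotypes had opposite signs at the 2 labelling times for the following synthesis rates, with 1 library per genotype at each time, so that the difference between times was not tested. The median log2 change of the kinase families was 0.12 at 20 min and -0.16 at 60 min, a difference of -0.29, and that of the phosphatase families 0.05 and -0.14, a difference of -0.19. Over all genes the medians were 0.04 and -0.08, with the same signs. Dusp4 had -0.61 and 0.02, a difference of 0.63, and Dusp5 0.40 and -0.87, a difference of -1.26. Ppp1r1b had 0.28 and -0.35 (difference -0.63), Ptpn11 0.42 and -0.10 (difference -0.52) and Ptprd 0.09 and -0.07 (difference -0.16).

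For the processing rate the same pattern was seen in Ppp1r1b, at 0.19 and -0.45, a difference of -0.64. For the degradation rate it was seen in Ptprd, at 0.02 and -0.23, a difference of -0.25. None of these genes passed the test for the rate concerned.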

How the results depend on the processing

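The 19 degradation calls kept their sign under every alternative that fitted them: 14 of the 19 were fitted without the 25% of genes with the lowest mean rates, 18 were in the authors' deposited table, and 19 were fitted under each of the others. The block, the variance trend and the stricter threshold leave the log2 change as it was. Centring shifts it by the same amount in every gene. A kept sign was therefore largely fixed beforehand. The blocked fit, pairing the libraries by labelling time, gave 23 calls in the kinase and 21 in the phosphatase families for degradation (11 and 8 without the pairing), and 8 and 8 for processing (0 and 0). With block and centring these were 14 and 24, and 4 and 3. Degradation calls were 0 and 1 after centring, 3 and 4 after quantile normalization and 0 and 0 at a threshold of 0.01. They were 19 and 16 in the authors' deposited table (29.2% of all genes higher and 7.09% lower), and 14 and 13 with a pseudocount of 0.0431 (28.9% and 4.27%). Without the 25% of genes with the lowest mean rates they were 12 and 7 (30.1% and 1.98%). With a variance trend they were 13 and 9 (25.5% and 2.57%).

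Centring, with or without the block, took the degradation medians to 0.068 in the kinase and -0.61 in the phosphatase families and the processing medians to -0.031 and 0.0041. Quantile normalization gave 0.17 and -0.33 for degradation and 0.014 and 0.029 for processing. The degradation median of the phosphatase families was 0.072 without the 25% of genes with the lowest mean rates and 0.20 with the pseudocount. Over genes with 3 or 4 rates, an alternative added after the data were seen, the degradation medians were 0.61 and 0.17. For the phosphatase families the sign of this median therefore depends on the scaling. The same holds for the degradation median over all genes, which was 0.65 before centring and -0.20 after it.

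Leaving out 1 labelled library at a time gave 0 to 7 degradation calls in the kinase and 0 to 9 in the phosphatase families, with medians of 0.80 to 0.93 and 0.15 to 0.40. Processing gave 0 to 1 and 0 to 0 calls, with medians of -0.42 to -0.10 and -0.47 to 0.0043, and synthesis 0 to 0 calls in both, with medians of -0.02 to 0.10 and -0.034 to 0.21. The genotype with 1 library left was assumed to vary like the other. Synthesis gave 0 calls under every setting run. Precision is limited by 2 libraries per genotype, unknown depth, wild-type rates that share 1 ratio, and rates missing mostly from the knockout.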
